A study of Mus musculus with 4 samples.

Results

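Spots of slow, oxidative skeletal muscle made up 571 of the 10649 kept spots in Visium sections of the injured mouse Achilles tendon region. A spot is a small printed area that captures the RNA of whatever lies above it, so it can hold several muscle fibres and parts of other cells. A spot was a member when it had at least 500 UMIs (counted RNA molecules), at least 1% of its UMIs came from the 6 slow sarcomere genes Myh7, Myl2, Myl3, Tnnt1, Tnni1 and Tnnc1, and under 0.1% came from the 3 embryonic genes Myh3, Myh8 and Myl4. The spots were thus chosen by these 9 genes. By section, in the order WT 1, WT 2, F592A 1, F592A 2 that every set of 4 values below follows, they numbered 268, 48, 141 and 114. They held 1579097, 582064, 632587 and 552626 UMIs, with medians of 5185, 9042, 3279 and 4751.5 UMIs per spot. The WT sections came from TrkA WT mice labelled as control, and the F592A sections from TrkA F592A mice labelled with 1NMPP1. Use of 1NMPP1 in WT animals cannot be read from the word control, so allele and compound may differ together. TrkA is the receptor tyrosine kinase for nerve growth factor, and the F592A change lets the compound 1NMPP1 block its kinase. In both groups 12-week-old mice had a 0.5 mm punch injury about 2 mm above the insertion on the heel bone and the tissue was taken on day 14. The design text gives 4 pooled mice per genotype and both sexes were used, but not which animal each 10 µm section came from. The p-values given here therefore rest on the spread between 2 sections per group, and those of edgeR also on spread shared across genes. The sex-linked transcripts given below place the WT sections in different animals, while the F592A sections may come from the same ones.

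Slow, or type I, fibres carry the beta myosin heavy chain encoded by Myh7 and contract slowly and for long periods. They burn fatty acids and glucose in many mitochondria, hold oxygen on myoglobin and are rich in capillaries. Type IIa fibres, which carry the myosin Myh2, are fast but also oxidative, whereas types IIx (Myh1) and IIb (Myh4) rely more on glycogen and glycolysis. Next to the Achilles tendon of the mouse, the soleus is the muscle richest in slow and IIa fibres. Embryonic and neonatal myosins (Myh3, Myh8) return in fibres that are being rebuilt after injury.

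Several facts of the 4 sections touch every result below. Xist, the RNA that silences an X chromosome in female cells, reached 4207 UMIs over the whole of WT 2 and 7 to 12 in the other sections. Y-linked transcripts over the whole sections gave 7918, 23, 7723 and 7522 UMIs. In the slow spots Xist gave 0, 51, 0 and 0 UMIs and Y-linked transcripts gave 341, 0, 144 and 134. Sex therefore cannot be told apart from the difference between WT 2 and the other sections. The slow spots of F592A 1 and F592A 2 lay at 44 shared array positions, none of them with identical counts, and no other pair of sections shared a position. Over genes the slow spots of the F592A sections differed by a chi-square of 3.73 per degree of freedom and those of the WT sections by 11.3, so in neither group did the sections agree within sampling noise. Against F592A 1 and F592A 2 the values were 4.08 and 5.33 for WT 1 and 8.45 and 13.7 for WT 2. By this measure WT 1 was closer to both F592A sections than to WT 2. The correlation of log CPM with WT 1 was 0.947 for F592A 1, 0.929 for WT 2 and 0.923 for F592A 2. Between F592A 1 and F592A 2 it was 0.918, so by correlation the F592A sections were not closer to each other than the WT sections. The chi-square also grows with the number of UMIs, which differed between sections. Slow spots above 20000 UMIs were rare but heavy, with 3, 7, 2 and 0 of them by section. They held 4.39%, 31.1%, 22.3% and 0% of the UMIs of their section's slow spots. The heaviest, in F592A 1, had 95900 UMIs with Myh7 at 209 CPM (UMIs per 1000000 UMIs) and 6.35% of UMIs from tenocyte and fibroblast genes.

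Most slow spots of each section formed one field of muscle. The largest run of touching slow spots held 226 of 268, 45 of 48, 138 of 141 and 112 of 114 slow spots. WT 1 was the least compact, with 42 slow spots outside its largest run, 27 of them in a run of their own, and these 42 spots held 463292 of its slow-spot UMIs. Of the array neighbours of a slow spot, 72.7%, 68.9%, 83.0% and 71.2% were slow, and 2.76% to 6.26% were fast muscle. Fast muscle spots, used for comparison throughout, had at least 5% of UMIs from Myh1, Myh4, Myl1, Mylpf, Tnnt3, Tnni2 and Tnnc2 and stayed under both limits of the slow rule. They numbered 485, 171, 583 and 506. Spots touching a member without being one had a median of 0.654%, 0.687%, 0.450% and 0.604% slow genes, against 0.0199% to 0.122% in spots further away. The limit of 1% thus cut through a graded edge: members just inside had 1.01% to 1.03% slow genes, the nearest spots outside 0.953% to 0.996%.

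**Figure D1:**
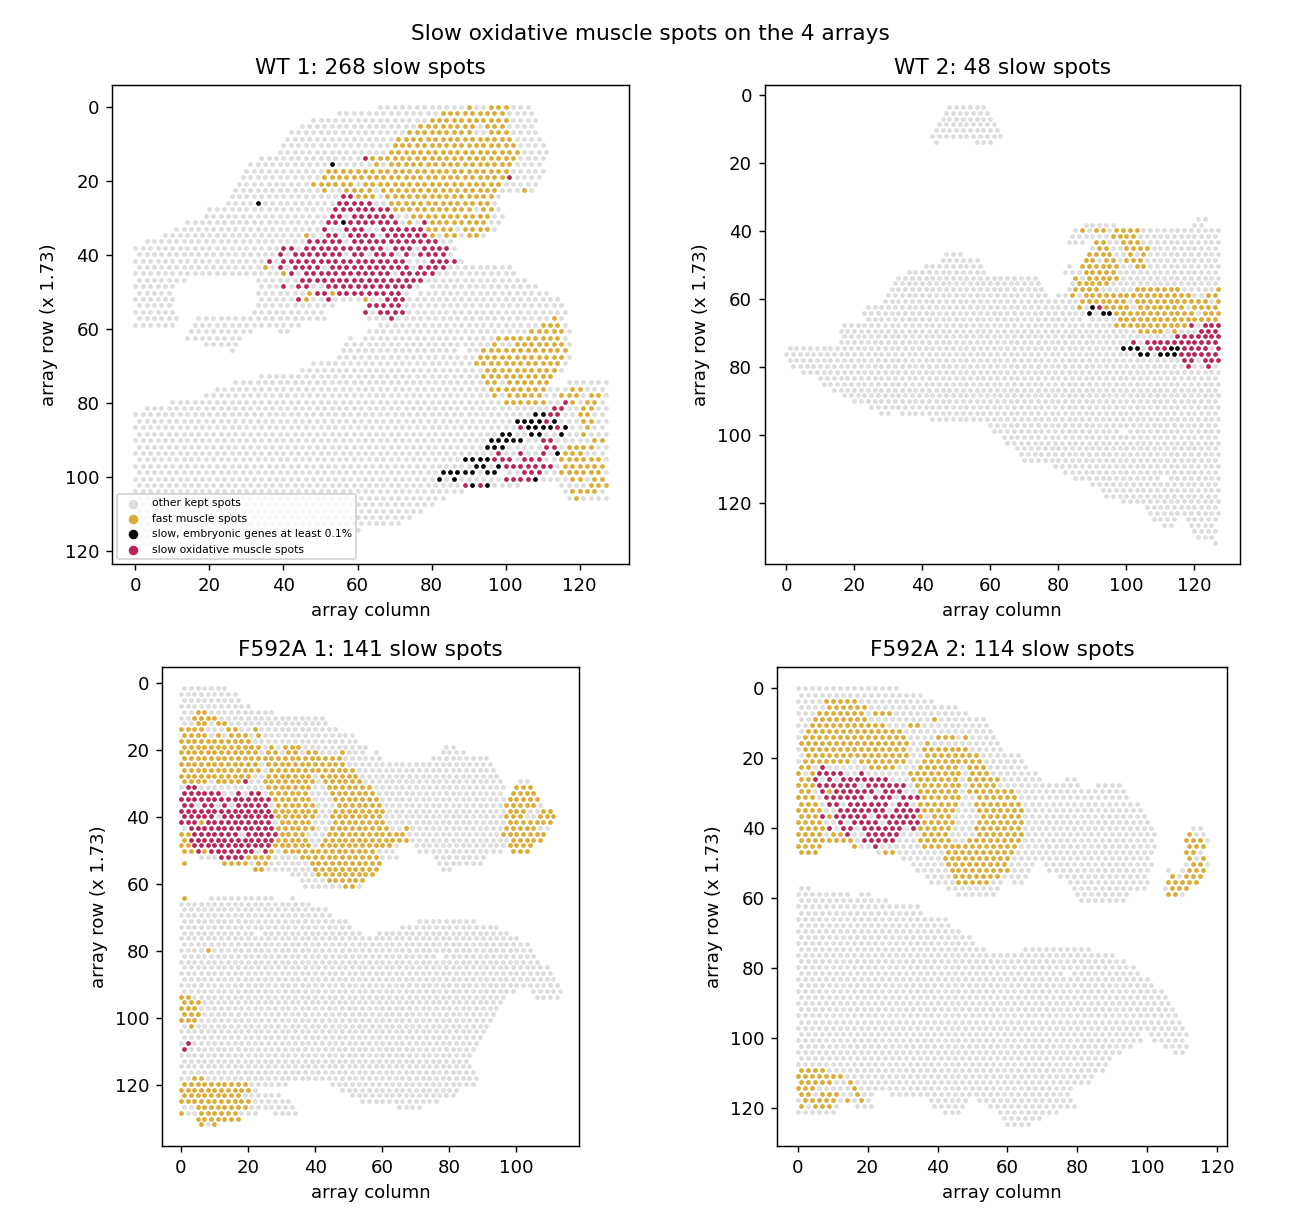
Array positions of kept spots in the 4 sections, by array column and row (row scaled to true distance). Slow oxidative muscle spots are red, fast muscle spots yellow, spots with slow genes but embryonic genes at 0.1% or more black, and other spots grey; each section has one main red field, and black spots appear in WT 1 and WT 2 and in neither F592A section.

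The label fits the markers only in part. All 7 markers of slow oxidative muscle were abundant. Myh7 stood at 3319, 5807, 2194 and 2703 CPM of the slow spots' UMIs, highest in WT 2. Myl2, the slow regulatory light chain, stood at 4977, 3556, 4338 and 3789 CPM. Myl3, the slow essential light chain, stood at 5245, 2510, 5693 and 5070 CPM and was lowest in WT 2. Tnnt1, slow troponin T, stood at 4477, 4362, 2591 and 2928 CPM, with both WT sections above both F592A sections. Of the markers outside the rule, Mb (myoglobin) stood at 7029, 4163, 8600 and 7104 CPM. Fabp3, the fatty acid carrier of oxidative muscle, stood at 1692, 783, 2189 and 2526 CPM. Ckmt2, the mitochondrial creatine kinase of muscle, stood at 2082, 1256, 2887 and 3197 CPM. For each of these 3 genes WT 2 was the lowest section. These values chose the spots or belong to the chosen cells, so they are given without a test.

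Myh7 was not the leading myosin of these spots. Myh2, the IIa myosin, stood at 5677, 2661, 6342 and 5255 CPM, above Myh7 in WT 1, F592A 1 and F592A 2 and below it in WT 2. Among the 4 adult myosins, Myh2 was the highest in 64.9%, 12.5%, 51.8% and 59.6% of slow spots. Myh7 was the highest in 19.03%, 47.9%, 7.80% and 14.9%. These are UMIs, which are not scaled by transcript length, and not protein. Myh1 stood at 2369, 2848, 4970 and 4052 CPM and Myh4 at 1232, 4053, 2151 and 2155 CPM, and both genes' lowest section was WT 1. A spot can cover several fibres, so these spots are read here as fields with both Myh7 and Myh2 transcripts, not as slow fibres alone.

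**Figure D2:**
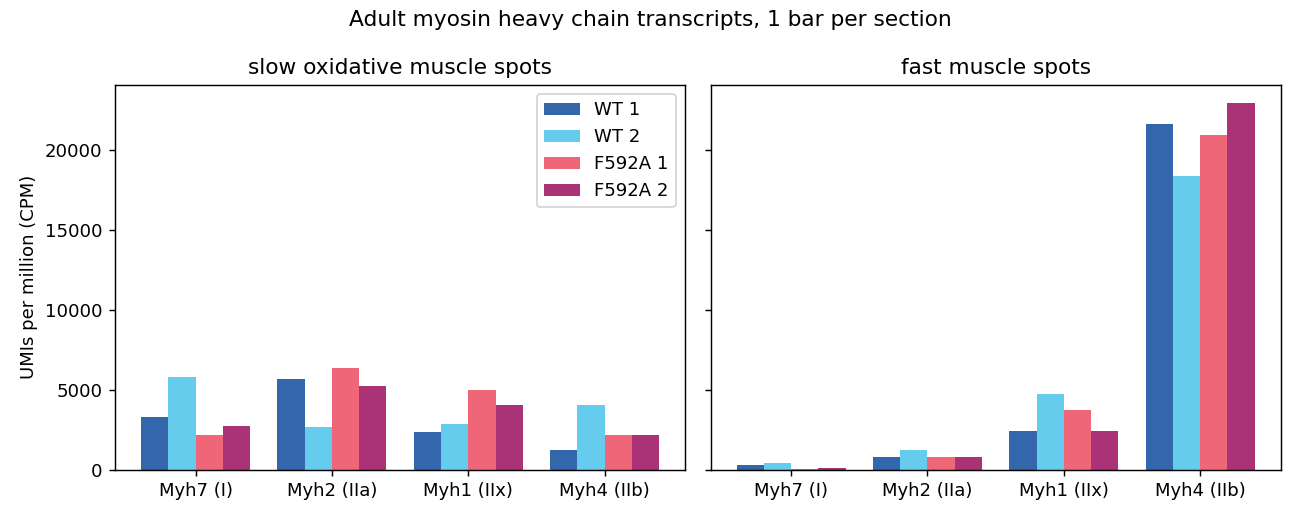
CPM of the 4 adult myosin heavy chain genes in slow (left) and fast (right) muscle spots, 1 bar per section, with no error bar because each bar is a sum over one section. In slow spots Myh2 reaches 2661 to 6342, while Myh4 reaches 18359 to 22907 in fast spots.

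Within the fields, spots with more slow genes had less Myh2 in WT 1, F592A 1 and F592A 2. When the slow spots of a section were ordered by their slow share and cut into tertiles, Myh2 went from 6297 CPM in the lowest tertile to 4602 in the highest in WT 1, from 6965 to 5180 in F592A 1 and from 5883 to 4255 in F592A 2. In WT 2, with 16 spots per tertile, it went from 2430 to 2857. Atp2a2, the calcium pump of the slow sarcoplasmic reticulum, went up with the slow share, from 1775 to 3377 CPM in WT 1, 2895 to 5932 in WT 2, 1139 to 2919 in F592A 1 and 1719 to 3090 in F592A 2. Mb had no common direction, with 6650 and 7135 CPM in the lowest and highest tertile of WT 1, 3589 and 4860 in WT 2, 8753 and 8277 in F592A 1 and 7409 and 6934 in F592A 2. Tenocyte and fibroblast genes were lower in the highest than in the lowest tertile of every section. From lowest to highest tertile they went from 2.54% to 1.99% of UMIs in WT 1 and from 6.11% to 2.24% in WT 2. They went from 3.44% to 1.48% in F592A 1 and from 1.16% to 1.05% in F592A 2. The middle tertile of F592A 1 had 1.37%, below its highest tertile. Tertile values are sums of UMIs, so heavy spots weigh more in them.

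The gene most like Myh7 from spot to spot, outside the rule, was Atp2a2. Its Spearman correlation with Myh7 over the slow spots was 0.57, 0.81, 0.46 and 0.44 in the 4 sections, the highest mean (0.57) of 2651 genes after Tnnt1. Tpm3, slow tropomyosin, followed with a mean of 0.56. Car3, the carbonic anhydrase of slow muscle, Apobec2, a muscle member of the cytidine deaminase family, Idh2, Pcp4l1, Hspb6 and Fhl1 came next, with means between 0.23 and 0.27. Apobec2 had −0.05 in F592A 2. At the other end stood the fast genes Tnnt3, Atp2a1 and Mylpf, at −0.33, −0.31 and −0.29. The transcripts mt-Co3 and mt-Nd3 of the mitochondrial genome were near that end too, at −0.28 and −0.27. Myh2 stood at −0.23, with 0.02 in WT 2. Mb had a mean of 0.02, with 0.43 in WT 2 and −0.25 in F592A 2. Spots of one section share a library and neighbouring fibres and differ in depth, so these correlations are descriptions.

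**Figure D3:**
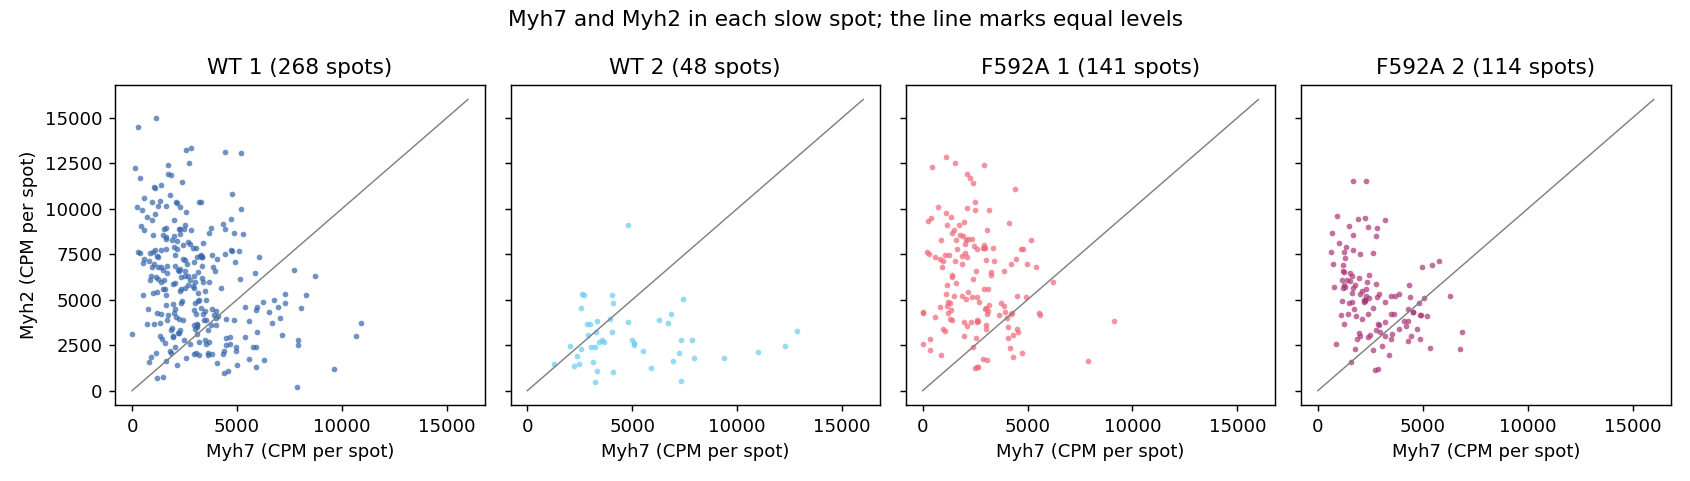
Myh7 (horizontal axis) and Myh2 (vertical axis) in each slow spot, in CPM of that spot, 1 panel per section and 1 point per spot; the line marks equal levels. Most points of WT 1, F592A 1 and F592A 2 lie above the line, and Myh2 is the highest adult myosin in only 12.5% of the spots of WT 2.

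The promoters of 4 genes high in these spots are shown, 2 of the rule (Myl3, Tnnc1) and 2 of oxidative energy supply (Fabp3, Ckmt2), each with a single start site in the RefSeq table. Each sequence is the 250 bases before the RefSeq start in GRCm38.p6, read 5′ to 3′ on the gene's strand. Capitals mark matches on either strand to the E-box CANNTG, read by myogenic regulators, and to the MCAT motif CATTCC, read by TEAD factors. The Myl3 window is chr9:110763428-110763677 on the plus strand, that of Tnnc1 chr14:31208062-31208311 on the plus strand, that of Fabp3 chr4:130308488-130308737 on the plus strand and that of Ckmt2 chr13:91876886-91877135 on the minus strand.
Myl3: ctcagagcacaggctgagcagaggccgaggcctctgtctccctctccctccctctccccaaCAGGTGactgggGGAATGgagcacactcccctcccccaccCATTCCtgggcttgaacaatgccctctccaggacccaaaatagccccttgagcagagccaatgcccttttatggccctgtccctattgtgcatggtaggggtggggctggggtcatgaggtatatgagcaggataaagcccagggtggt
Tnnc1: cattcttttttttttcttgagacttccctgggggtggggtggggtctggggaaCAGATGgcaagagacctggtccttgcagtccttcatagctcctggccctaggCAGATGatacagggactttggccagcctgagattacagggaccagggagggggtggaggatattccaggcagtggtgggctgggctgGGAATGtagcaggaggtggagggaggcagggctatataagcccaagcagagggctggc
Fabp3: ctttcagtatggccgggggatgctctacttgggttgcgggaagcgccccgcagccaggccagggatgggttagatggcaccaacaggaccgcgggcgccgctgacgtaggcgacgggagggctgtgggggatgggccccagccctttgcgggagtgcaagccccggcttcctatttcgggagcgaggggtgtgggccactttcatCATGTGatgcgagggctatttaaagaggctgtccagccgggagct
Ckmt2: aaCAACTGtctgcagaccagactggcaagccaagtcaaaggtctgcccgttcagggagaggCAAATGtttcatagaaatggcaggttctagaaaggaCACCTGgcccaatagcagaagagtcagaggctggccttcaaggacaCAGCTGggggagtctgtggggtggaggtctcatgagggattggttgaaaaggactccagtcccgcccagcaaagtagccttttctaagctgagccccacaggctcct
The Myl3 window holds 1 E-box and 2 MCAT matches, Tnnc1 2 and 1, Fabp3 1 E-box and Ckmt2 4. None of the 4 windows holds a match to the MEF2 motif. Of 32851 windows of the same length, 66.2% hold an E-box, 12.6% an MCAT match and 2.92% a MEF2 match. A match says only that these letters are there. The Sln promoter is not in the table.

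Set against fast muscle of the same sections, the slow spots carried more of the slow contractile and calcium pump genes. Of 2815 genes with at least 50 CPM in either kind of spot, 56 (1.99%) were at least 2-fold higher in slow spots in every section and 30 (1.07%) at least 2-fold lower. All ratios were taken after adding 20 CPM to both values and carry no test, since the rule chose the spots by related genes. Of 9 slow fibre genes outside the rule, 8 were at least 2-fold higher in all sections. Tpm3 led, at 2458, 2122, 1168 and 1762 CPM in slow and 146, 161, 64.7 and 72.9 in fast spots. Atp2a2 followed, at 2525, 4505, 1974 and 2332 CPM in slow and 297, 435, 167 and 172 in fast spots. Csrp3, a stretch-linked LIM protein, Myoz2, a calcineurin-binding Z-disc protein, and Ankrd2, a stretch-responsive ankyrin protein, were also among the 15 genes most in excess. So was Strit1, which encodes a micropeptide that activates the calcium pump, at 50.6 to 88.7 CPM in slow and 1.78 to 4.00 in fast spots.

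Fuel genes differed by step of the pathway. Of 19 genes of fatty acid uptake and oxidation, 19 were higher in slow spots in every section and 7 at least 2-fold, with a median log2 ratio of 1.33 beside 0.09 over all genes. Over all genes, 33.5% were higher in slow spots in every section and 14.3% lower. Fabp3 stood at 239 to 353 CPM in fast spots, against 783 to 2526 in slow spots. Acsl1, which activates fatty acids, stood at 242 to 563 CPM in slow and 97.0 to 146 in fast spots. Citric acid cycle genes were higher in every section for 16 of 17, with a median of 0.72, and mitochondrial Idh2 was among the 15 genes most in excess, at 722 to 1010 CPM against 121 to 155. Nuclear genes of oxidative phosphorylation were higher for 24 of 24, but by less, with a median of 0.68 and none at 2-fold in every section. Transcripts of the mitochondrial genome showed no such excess: 0 of 12 were higher in every section and 6 were lower.

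Glycolysis and fast contraction lay on the other side. Of 16 genes of glycogen use and glycolysis, 14 were lower in slow spots in every section, with a median of −0.88. Ldhb, the heart-type lactate dehydrogenase, went against its list, at 757, 1005, 776 and 993 CPM in slow and 104, 162, 93.0 and 110 in fast spots. Pvalb, the calcium buffer of fast fibres, showed one of the largest deficits, at 536, 1062, 1182 and 1133 CPM against 8512 to 10494 in fast spots. Actn3, the fast Z-disc actinin, stood at 193 to 311 CPM against 2295 to 2688, and Mybpc2, fast myosin-binding protein C, at 105 to 213 against 1301 to 1555. Myh2 was the exception among the fast fibre genes, at least 2-fold higher in slow spots in every section, with 13 of the 15 lower. Prkag3, the glycolytic-fibre subunit of AMP kinase, and Mstn, the growth inhibitor myostatin, were among the 15 genes most in deficit, and so was Gpd1 of the glycerol phosphate shuttle.

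Of the other cell types, endothelial genes were higher than in fast muscle in every section for 6 of 7 (median log2 ratio 0.65). Tenocyte and fibroblast genes were lower in every section for 5 of 9 (median −0.34) and macrophage genes for 0 of 5. Small heat shock and chaperone genes had a median of 0.98, with Cryab, a chaperone of desmin and titin, at 2608 to 4202 CPM in slow and 555 to 994 in fast spots. Fewer cells of a type and less RNA per cell cannot be told apart in such sums.

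**Figure D4:**
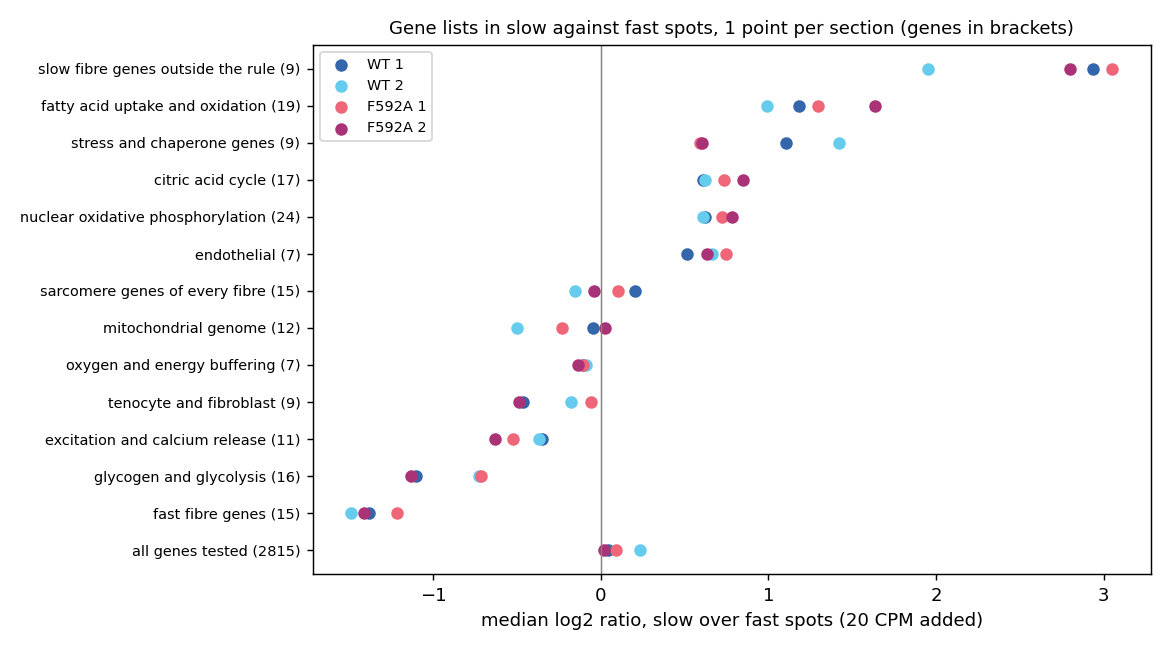
Median log2 ratio of slow over fast muscle spots for gene lists (20 CPM added), 1 point per section, with the number of genes in brackets. Slow fibre and fatty acid genes lie right of 0 in all 4 sections and fast fibre and glycolysis genes left of it, while all genes tested lie near 0.

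Against all other kept spots, fast muscle included, 370 of 3794 genes (9.75%) were at least 2-fold higher in slow spots in every section and 372 (9.8%) at least 2-fold lower. Ldhb, Csrp3, Hspb6 and Mb led the excess. Mb stood at 425 to 546 CPM outside the slow spots. The deficit was led by Sfrp2, a secreted Wnt modulator of fibroblasts, at 52.6, 58.4, 53.7 and 38.0 CPM against 465 to 588, and by Thbs2, a matricellular thrombospondin, at 88.7 to 196 against 974 to 1383. Spp1 and Postn, wound matrix genes, were also among the 15 genes most in deficit. Tenocyte and fibroblast genes still made up 2.24%, 3.77%, 2.39% and 1.12% of UMIs in the slow spots. Neutrophil genes gave 3 to 19 UMIs per section, with 2, 4, 4 and 5 of the 6 at 0.

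The WT sections also held spots with at least 1% slow genes but embryonic genes at 0.1% or more. There were 48 in WT 1 and 14 in WT 2, and 0 of 2834 spots in F592A 1 and 0 of 2748 in F592A 2, which allows shares of up to 0.106% and 0.109%. The share was 1.13% ± 0.626 (SD, n = 2) of kept spots in WT and 0% in both F592A sections (exact two-sided permutation p = 0.333, the smallest that 2 against 2 sections allow). In these spots Mb stood at 2465 and 2427 CPM in WT 1 and WT 2, Fabp3 at 607 and 570, and Ckmt2 at 599 and 693, all below the members. Igf2, a fetal growth factor, stood at 633 and 153 CPM, against 83.6 and 75.6 in the members. Tenocyte and fibroblast genes made up 4.88% and 5.12% of UMIs in these spots, against 2.24% and 3.77% in the members. Median depth was 18892.5 and 16555 UMIs per spot, against 5185 and 9042. The part of mixture and depth in these values was not tested. Of 3333 genes, 8 (0.24%) were at least 2-fold higher in members than in these spots in both WT sections, and 37 (1.11%) at least 2-fold lower. The rule set members apart from these spots by embryonic myosin, so these values carry no test. Of the members, 158 of 268, 11 of 48, 128 of 141 and 107 of 114 had no embryonic UMI at all. Such counts were not corrected for depth, with medians of 5185, 9042, 3279 and 4751.5 UMIs per member spot.

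The share of slow spots did not separate the genotypes. It was 8.81% of the kept spots of WT 1 (95% exact Clopper-Pearson interval 7.82% to 9.87%), 2.37% in WT 2 (1.75% to 3.13%), 4.98% in F592A 1 (4.20% to 5.84%) and 4.15% in F592A 2 (3.43% to 4.96%). The WT sections lay on either side of the F592A sections. The mean was 5.59% ± 4.55 (SD, n = 2) in WT and 4.56% ± 0.585 (SD, n = 2) in F592A. F592A minus WT came to −1.03 points of percent, with p = 1 in a two-sided exact permutation test of the sections. Without WT 1 the difference was 2.19, and without WT 2 it was −4.25. These intervals cover counting error only.

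Between genotypes, 3 of 6862 genes in the slow spots passed edgeR's quasi-likelihood test at a Benjamini-Hochberg adjusted p of 0.05 (0.0437%), 1 higher (0.0146%) and 2 lower (0.0291%) in F592A. At an unadjusted p under 0.05 there were 546. Fits without WT 1, WT 2, F592A 1 or F592A 2 called 143, 52, 33 and 5 genes, each including the 3; the section left alone in its group was assumed to vary like the other group. Sln encodes sarcolipin, a small membrane protein that inhibits the calcium pump of the sarcoplasmic reticulum and is found in slow and regenerating mouse muscle. Its gene lies at chr9:53850251-53853849 in GRCm38.p6. Sln stood at 850 and 2256 CPM in WT 1 and WT 2 and at 157 and 150 in F592A 1 and F592A 2. Every WT section was above every F592A section, and the fitted log2 difference was −3.15 ± 0.37 (SE, edgeR adjusted p = 0.0231).

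Sln differed by place within WT 1. In the main slow field of WT 1 (226 spots) Sln stood at 167 CPM, beside 162 and 144 in the main fields of F592A 1 and F592A 2. In the 42 slow spots of WT 1 outside it, Sln stood at 2495 CPM, and in the main field of WT 2 at 2331. Of the 1342 Sln UMIs of WT 1, 1156 lay in those spots, where embryonic genes made up 0.0483% of UMIs against 0.00995% within it. With the largest field of each section alone, a setting chosen after seeing the data, the log2 difference was −2.74 (edgeR adjusted p = 0.353) and the call was lost. In these fields only WT 2 stood far above the F592A sections, while WT 1 was near them, so this size rests on WT 2. With slow spots that had any embryonic UMI left out, also chosen after seeing the data, the log2 difference was −2.65 (edgeR adjusted p = 0.210). With spots above the median fibroblast share (1.62%) left out, a fit without WT 2, it was −0.95. In fast spots Sln stood at 76.6, 141, 8.66 and 11.3 CPM, a log2 difference of −3.38 (edgeR adjusted p = 0.0323), and the interaction between slow and fast spots was 0.31 (edgeR adjusted p = 0.948).

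Igf2, whose gene lies at chr7:142650768-142666816, was the other lower gene. It stood at 83.6 and 75.6 CPM in WT and 11.1 and 10.9 in F592A, a log2 difference of −2.77 ± 0.37 (SE, edgeR adjusted p = 0.0259), from 132, 44, 7 and 6 UMIs. Its values followed the same places as Sln in WT 1, with 26.9 CPM in the main field and 220 outside it, while the main field of WT 2 had 80.2 CPM and those of F592A 1 and F592A 2 6.16 and 11.1. With the largest fields alone the log2 difference was −2.33 (edgeR adjusted p = 0.274), and without spots with any embryonic UMI −1.93 (edgeR adjusted p = 0.512). Embryonic genes themselves, used by the rule and so only described, stood higher in WT, with Myh3 at 83.0, 87.6, 14.2 and 1.81 CPM.

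Krt77, a keratin of skin glands (chr15:101858731-101869706), was the higher gene. It stood at 28.5 and 5.15 CPM in WT and 201 and 299 in F592A, a log2 difference of 3.67 ± 0.49 (SE, edgeR adjusted p = 0.0259). It is not a muscle gene. Fast spots had 30.0, 21.7, 178 and 330 CPM, close to the slow spots in WT 1, F592A 1 and F592A 2 and above them in WT 2. All 7 keratinocyte genes were detected in the slow spots of each section, together 0.104%, 0.00807%, 0.101% and 0.232% of UMIs, and 0.0938%, 0.0249%, 0.120% and 0.277% in fast spots. The part of skin RNA in this difference was not tested. With the largest fields alone the log2 difference was 3.61 (edgeR adjusted p = 0.0855), and none of the 6222 genes passed that fit with edgeR, 531 having an unadjusted p under 0.05.

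**Figure D5:**
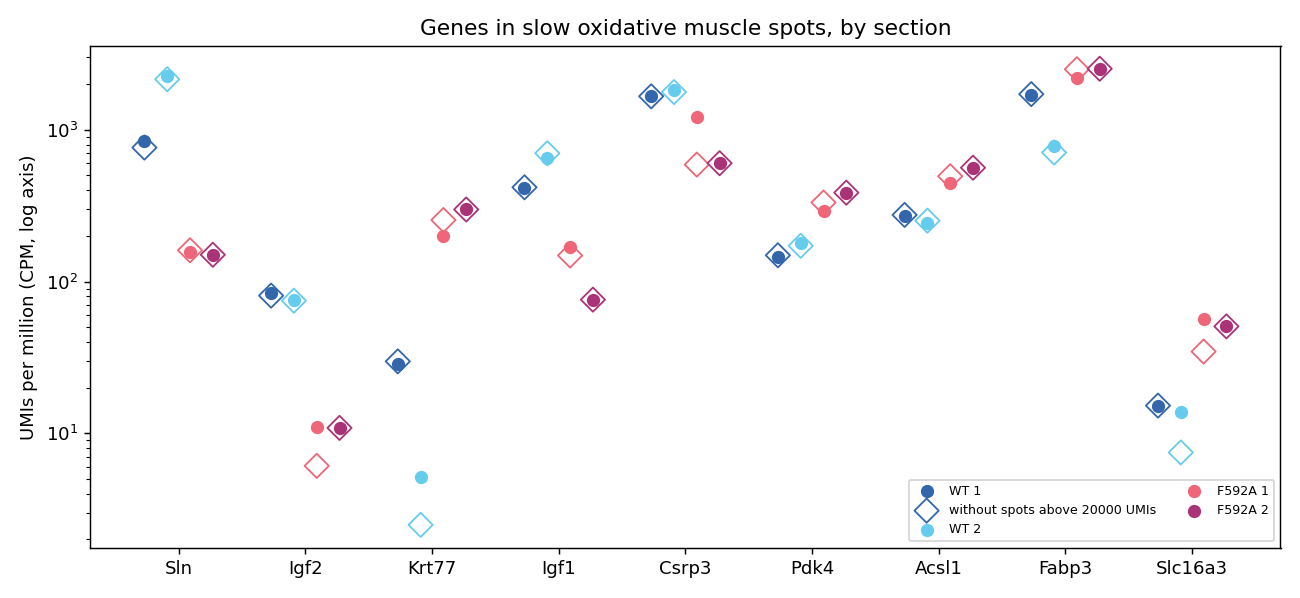
CPM (log axis) of 9 genes in the slow spots of each section; filled points use all slow spots and open diamonds leave out spots above 20000 UMIs. Sln, Igf2 and Krt77 separate the genotypes in both sets, and Csrp3 in F592A 1 moves down to the level of F592A 2 once its 2 heavy spots are left out.

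The genes next in order did not pass. Toward lower values in F592A they were Igf1, the muscle growth factor, at 417, 649, 169 and 76.0 CPM (log2 difference −1.97, edgeR adjusted p = 0.115), Sfrp4 (−2.08), elastin Eln (−2.17), Tppp3, a marker of tendon sheath cells (−2.31), and Fst, the myostatin antagonist follistatin (−1.90). Toward higher values they were the lactate exporter Slc16a3 (1.93, edgeR adjusted p = 0.120), Pdk4 (1.19), Mylk4 (1.40) and 4 others, Sbsn, Anxa8, Gata3 and Aldoart1. Sbsn, Anxa8 and Gata3 are expressed in skin, and Aldoart1 is a near copy of Aldoa, so its counts may hold Aldoa reads.

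Fuel genes had mostly positive F592A minus WT differences, and none was called in all slow spots. Of 21 fatty acid genes, 21 had a positive log2 difference (median 0.64, beside −0.02 over all genes), and in 20 both F592A sections were above both WT sections. That order was met by 13.2% of all genes, and the opposite order by 24.2%. Pdk4, a pyruvate dehydrogenase kinase, stood at 146, 179, 291 and 385 CPM (log2 difference 1.19 ± 0.24 SE, edgeR adjusted p = 0.188). Acsl1 stood at 272, 242, 444 and 563 CPM (1.07, edgeR adjusted p = 0.268), Etfdh, which passes electrons from fatty acid oxidation to the respiratory chain, at 101, 84.2, 150 and 250 (1.18, edgeR adjusted p = 0.313), and Ucp3 at 15.8, 17.2, 37.9 and 36.2 (1.25, edgeR adjusted p = 0.377). No WT section overlapped an F592A section for any of these 4 genes.

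The neighbouring steps had the same sign. Citric acid cycle genes were positive for 16 of 17 (median 0.44), with Idh3a at 282, 228, 405 and 438 CPM and citrate synthase Cs at 374, 392, 519 and 628. Nuclear genes of oxidative phosphorylation were positive for 24 of 24 (median 0.38), mitochondrially encoded genes for 13 of 13 (0.47) and glycogen and glycolysis genes for 16 of 16 (0.32). Both F592A sections lay above both WT sections for 14 of 17 citric acid cycle and 17 of 24 nuclear oxidative phosphorylation genes. This order was met by 2 of 13 mitochondrially encoded and 5 of 16 glycogen and glycolysis genes, beside 13.2% of all genes. Among the glycogen and glycolysis genes, Phka1, a subunit of the kinase that activates glycogen breakdown, stood at 46.9, 63.6, 104 and 95.9 CPM. None of these genes was called. The tenocyte and fibroblast list had 1 of 12 positive differences (median −0.48), and mitochondrial RNA made up 20.7%, 11.3%, 19.3% and 24.5% of UMIs, lowest in WT 2. Their part in the fuel genes was not tested. In fast spots the same fatty acid list was positive for 21 of 22 genes with a median of 0.26, and the interaction between slow and fast spots was positive for 22 of 22 (median 0.39) with none called.

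Fibre type genes gave no uniform picture. Slow fibre genes outside the rule were negative for 8 of 11 (median −0.44), Sln being the called one, with Csrp3 at 1666, 1842, 1211 and 603 CPM (−0.84, edgeR adjusted p = 0.594) and Atp2a2 at 2525, 4505, 1974 and 2332 (−0.55, edgeR adjusted p = 0.699). Fast fibre genes were positive for 14 of 15 (median 0.49), with Myh1 at 2369, 2848, 4970 and 4052 CPM (0.92, edgeR adjusted p = 0.539) and Myh4 at −0.09. Of the rule genes, as a description, Myh7 had a log2 difference of −0.74, Tnni1 of −0.50, Tnnt1 of −0.57 and Myl3 of 0.53. Fibre type and oxidative regulators were positive for 13 of 21 (median 0.19) with none called, and 11 of the 25 in the list reached 50 CPM in slow or fast spots. Mef2c, a myogenic transcription factor, stood at 657, 423, 473 and 460 CPM. Ppargc1a, the co-activator of mitochondrial genes, stood at 20.9, 12.0, 26.9 and 29.0 CPM, Nfatc1 at 32.9, 43.0, 20.6 and 14.5 and Prox1, a regulator of slow muscle, at 23.4, 30.9, 12.6 and 14.5.

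Other lists also stayed without a call apart from Igf2. Regenerating muscle genes were negative for 7 of 9 (median −0.70), among them Dlk1 at 32.3, 36.1, 6.32 and 1.81 CPM and the fetal actin Actc1 at 84.9, 85.9, 28.5 and 39.8. Immediate early genes were positive for 8 of 9 (median 0.82), with Nr4a1 at 45.6, 84.2, 147 and 116 CPM and Egr1 at 47.5, 44.7, 111 and 76.0. Stress and chaperone genes were negative for 10 of 12 (median −0.19), circadian genes positive for 7 of 7 (0.32), and denervation and atrophy genes mixed, with 4 of 10 positive. Among other cell types, keratinocyte genes were positive for 7 of 7 (1.81), macrophage genes negative for 7 of 7 (−0.55) and red cell genes negative for 5 of 5 (−0.82). Endothelial genes were split 5 to 5.

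Leaving out slow spots above 20000 UMIs, chosen after seeing the data, raised the number of called genes to 112 of 6196 (1.81%), 40 higher (0.646%) and 72 lower (1.16%) in F592A, and these included the 3 genes above. Both F592A sections were then above both WT sections for 14.9% of genes and below them for 29.6%. In the fatty acid list 3 genes were then called, Pdk4 (log2 difference 1.31, edgeR adjusted p = 0.00625), Acsl1 (1.13, edgeR adjusted p = 0.0174) and Etfdh (1.24, edgeR adjusted p = 0.0174). Vegfa, the angiogenic factor made by oxidative fibres, rose by 1.20 on the log2 scale (edgeR adjusted p = 0.0308) and Nr4a1 by 1.36 (edgeR adjusted p = 0.0113). Csrp3 fell, at 1662 and 1773 CPM in WT and 590 and 603 in F592A (log2 difference −1.38, edgeR adjusted p = 0.00823), and so did Igf1 (−2.13, edgeR adjusted p = 0.000662) and the chaperone Hspb1 (−1.10, edgeR adjusted p = 0.0251). Tenocyte and fibroblast genes then had 5 calls, all lower, among them Tnmd (−2.65, edgeR adjusted p = 0.000829) and Postn (−1.25, edgeR adjusted p = 0.0174), and keratinocyte genes 3, all higher, led by Krt5 (2.29, edgeR adjusted p = 0.00826). With the largest fields alone, which leave out 3 spots of F592A 1 with 145774 UMIs, the log2 differences were 1.29 for Pdk4, 1.04 for Acsl1 and −1.49 for Csrp3, none called.

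Whether the genotype difference itself differed between slow and fast muscle was tested with the interaction over 10830 genes. It called 9 genes (0.0831%), 5 with a positive (0.0462%) and 4 with a negative interaction (0.0369%). The interaction is the F592A minus WT log2 difference in slow spots minus that in fast spots, so its sign gives no size. In fast spots alone 10 of 11632 genes were called (0.086%), 4 higher (0.0344%) and 6 lower (0.0516%) in F592A. Slc16a3, the lactate exporter, was among the 9, at 15.2, 13.7, 56.9 and 50.7 CPM in slow and 122, 149, 151 and 132 in fast spots. Its genotype difference was larger in slow spots by 1.81 on the log2 scale (edgeR adjusted p = 0.0248). Apobec2 stood at 1032, 2349, 626 and 485 CPM in slow and 316, 405, 337 and 297 in fast spots, an interaction of −1.22 (edgeR adjusted p = 0.0418). Both F592A sections were below both WT sections for Apobec2 in slow spots, and the groups overlapped in fast spots. Myh7 and Tnnc1 were also among the 9, but the rule used them. Fits without WT 1, WT 2, F592A 1 or F592A 2 called 197, 34, 3 and 12 genes, and these included 9, 9, 1 and 2 of the 9. Slc16a3 and Apobec2 were no longer called without F592A 1 (edgeR adjusted p = 0.147 and 0.596) or without F592A 2 (edgeR adjusted p = 0.0901 and 0.693).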

How the data were processed

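RNA was measured with 10x Visium in 4 sections, 2 per genotype. The authors deposited filtered matrices of UMI counts for 32285 genes, made with Space Ranger 1.3.0 per the file headers and mm10 per the submitters' processing notes, which also name Seurat 3. Values are raw counts per spot. The sections held 42911141, 30154873, 43957617 and 37089208 UMIs in 3043, 2024, 2834 and 2748 kept spots (at least 500 UMIs, over tissue). No doublet caller was run, since a spot is a region.

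UMIs were summed per section over the slow spots. The section is the replicate. Genotype was tested with edgeR 4.0.16 (R 4.3.3; TMM scaling, filterByExpr, quasi-likelihood test, Benjamini-Hochberg adjustment over all genes tested, threshold 0.05), and the slow against fast difference of genotype with a section block. Each edgeR fit had 2 residual degrees of freedom. The spread shared across genes added prior degrees of freedom of 9.00 (slow spots), 27.5 (interaction) and 5.56 (fast spots). Spot shares were compared by exact permutation. Contrasts between kinds of spot are log2 ratios after adding 20 CPM, over genes with at least 50 CPM, with no test. DESeq2 1.42.0 was an alternative. The edgeR procedure was also run on simulated counts, drawn for each gene separately from its mean with edgeR's trended spread. The outcome of that run is not given here. Promoters came from RefSeq (GRCm38.p6).

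The members, the 31 gene lists and the tests were chosen with earlier results of these data known. Up to 12 genes per direction were named, called ones first if their average log2 CPM reached 5 and the groups did not overlap, filled to 8 by smallest p, plus up to 4 per list by smallest p, up to 6 per direction for the interaction, 15 per direction for contrasts and the 8 genes most like Myh7. Further list members and fixed markers are named where they show a group's range.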

Additional observations from a re-analysis of the deposited data

Results flagged for a closer look

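For 7 genes outside the rule, the difference between genotypes in slow spots differed from that in fast spots by the interaction test of edgeR. Values follow the order WT 1, WT 2, F592A 1, F592A 2 and interactions are on the log2 scale. Without F592A 1 only Tppp3 of these genes was still called (edgeR adjusted p = 0.0182), and without F592A 2 only Tppp3 and Dkk2 (edgeR adjusted p = 0.000322 for both).

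Dkk2, a secreted Wnt inhibitor, stood at 59.5, 44.7, 30.0 and 36.2 CPM in slow and 78.0, 33.2, 181 and 136 in fast spots (interaction −2.08, edgeR adjusted p = 0.00805). Tppp3, a marker of tendon sheath cells, stood at 187, 694, 88.5 and 63.3 CPM in slow and 108, 89.8, 108 and 71.3 in fast spots (−1.98, edgeR adjusted p = 0.0248). Elastin, Eln, stood at 244, 759, 125 and 67.0 CPM in slow and 170, 271, 166 and 83.6 in fast spots (−1.28, edgeR adjusted p = 0.0426). For Tppp3 and Eln the slow spots of WT 2, which also had the most fibroblast genes (3.77% of UMIs), were the highest, and the part of those cells was not tested.

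Slc16a3 (1.81, edgeR adjusted p = 0.0248) and Apobec2 (−1.22, edgeR adjusted p = 0.0418) are described above. Mss51, a mitochondrial protein of fast muscle, stood at 3.17, 22.3, 20.6 and 25.3 CPM in slow and 121, 428, 132 and 120 in fast spots (2.27, edgeR adjusted p = 0.0293). WT 1 was thus low in slow spots and WT 2 high in fast spots. Hba-a1, a red cell gene that can share reads with Hba-a2, stood at 1141, 435, 452 and 420 CPM in slow and 1585, 991, 278 and 364 in fast spots (1.36, edgeR adjusted p = 0.0418).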

How the results depend on the processing

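The 3 genes called between genotypes in slow spots became 6 with DESeq2 (1 shared, with no adjusted p for Igf2 and Krt77), 132 without a filter on low counts, 66 without fibroblast-rich spots (1 shared; fitted without WT 2), 112 without spots above 20000 UMIs, 2 without spots with any embryonic UMI (1 shared) and 0 in the largest patch alone. Leaving out 1 section gave 5 to 143. The replicate block gave 5, but the numbers share only a number (correlation of same-numbered deviations −0.213). Crossed pairs as a block, added after seeing the data, gave 221. The 9 interaction calls became 30 without the filter, 1 with at least 2% slow genes and 3 to 197 without 1 section. Of the 9, 1 remained without F592A 1, 2 without F592A 2, and 5 each without spots above 20000 UMIs and with fast spots limited to Myh4 over Myh1. The share difference of −1.03 ranged from −4.25 to 2.19 without 1 section and turned positive without WT 1.

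Over 67 single-gene results, each a genotype difference or an interaction, 768 values kept direction and side of the threshold, 169 moved past it, 38 lost it and 17 turned in sign. Without fibroblast-rich spots the log2 differences were −0.29 for Mb, −0.50 for Myh2, −0.25 for Myl3, −0.58 for Myl2 and 0.81 for Myh4. Myh4 was 0.069 with the replicate block, 0.068 with crossed pairs and 0.11 in the largest patch, where Myl2 was −0.057. Tnnc1 was 0.017 at 2% slow genes, 0.11 without spots above 20000 UMIs and 0.076 without embryonic UMIs. Without 1 section, Myh4 ranged from −0.59 to 0.78, Myl2 from −0.32 to 0.51, Tnnc1 from −0.26 to 0.11 and Myl4 from −2.98 to 0.29. The causes were not tested. With 48 slow spots in WT 2 and 2 sections per group, precision is limited, and 2 against 2 sections cannot give a permutation p under 0.333.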
